A study of Homo sapiens with 3 samples.

Results

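The comparison is between 2 arrays of PARP1-depleted H2030-BrM3 cells, one for each short hairpin RNA against PARP1, and it asks what else differs between cells that have lost different amounts of the PARP1 transcript. H2030-BrM3 is an established cell line, derived from the lung adenocarcinoma cells H2030 and selected for spread to the brain. The first group carried the hairpin labelled PARP1 shRNA-1 (hairpin 1) and the second the hairpin labelled PARP1 shRNA-2 (hairpin 2), with 1 Illumina HumanHT-12 array each. A further array, of the same line with a non-targeting shRNA, served only to show on which side of the control each hairpin lay. All 3 cultures received a hairpin RNA and the same medium, and nothing in the labels says how the hairpins were delivered, whether the cells were clones or pools, or what the hairpin sequences were. Members were the probes with a detection p under 0.01 on both hairpin arrays, which were 15982 of 47309 probes. Of these, 12924 carried 1 gene symbol and stood for 9805 genes, each represented by its brightest member probe, and 9697 of these genes were also above background in the control.

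PARP1 is a nuclear enzyme that binds broken DNA and, using NAD+, builds chains of ADP-ribose on itself and on neighbouring proteins, which recruits repair factors and loosens chromatin. It also acts as a cofactor at promoters, among them those driven by NF-kB, the inflammatory transcription factor. RNA interference by a hairpin can lower transcripts other than its target, so hairpins of different sequence against the same gene are commonly set side by side.

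The total signal was similar on the arrays. The median raw intensity per probe was 153.6 in control cells, 152.2 in those with hairpin 1 and 161.7 with hairpin 2, and 16855, 16350 and 17420 probes were above background. All arrays lay on 1 BeadChip, and their small number limits the precision of every value. With 1 array a side there is no replicate, no standard error and no test, and each difference below is the log2 ratio of 1 array to another, hairpin 2 minus hairpin 1, after background correction and quantile normalization. A difference in a bulk culture does not tell fewer cells of a kind from less RNA per cell. Of 9 epithelial and lung markers, KRT8, KRT18 and EPCAM were above background on all 3 arrays, whereas NKX2-1, NAPSA, SFTPB, KRT7, KRT19 and CDH1 were not above background on any. No endothelial marker of 4 was above background. COL1A1 of 5 fibroblast markers (5.70 to 5.78), MBP of 4 neural markers (11.22 to 11.44) and CD68 of 4 leukocyte markers with a probe (9.48 to 9.52) were above background on all 3 arrays at close to equal normalized log2 intensity. LYZ was above background in the control and with hairpin 2 only.

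PARP1 itself was the gene furthest down with hairpin 2. Its only named probe, ILMN_1686871, had raw intensities of 4365 in control cells, 1312 in those with hairpin 1 and 765.8 with hairpin 2, and normalized log2 intensities of 12.11, 10.29 and 9.16. The 3 arrays thus stood in a graded order, with 28.3% of the control's transcript signal with hairpin 1 and 12.9% with hairpin 2. The log2 ratio between the hairpins was −1.13, so hairpin 2 left 45.7% of the PARP1 signal seen with hairpin 1. Both hairpin arrays were below the control, which checks the labels of control against hairpin but would look the same with the hairpin labels exchanged.

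Outside PARP1 the hairpin arrays were close. The median log2 ratio over the 9805 genes was −0.01, with quartiles at −0.13 and 0.12 and an SD across genes of 0.210, and 88.5% of genes lay within 1.25-fold. At least 2-fold apart were 3 genes higher with hairpin 2 (CD55, CCNA1 and PMS2P2, 0.0306% of genes) and 1 lower (PARP1, 0.0102%). At least 1.5-fold apart were 67 genes higher (0.683%) and 83 lower (0.847%), and at least 1.25-fold apart were 540 higher (5.51%) and 589 lower (6.01%). Without background correction 9 genes were 1.5-fold higher and 3 lower, so most of the 150 calls at 1.5-fold rest on that step. Of the 2-fold calls only that of CD55 (1.05) remained without it and on the deposited normalized values (1.00), where CCNA1 was at 0.95 and 0.91, PMS2P2 at 0.59 and 0.56, and PARP1 at −0.98 and −0.94. At the edge of the 1.5-fold rule, LARP4 (0.59) lay just inside and NR3C1 (0.58) just outside among higher genes, and JOSD2 (−0.59) just inside and LONRF2 (−0.58) just outside among lower ones. Over all 9697 genes above background on 3 arrays the SD of the log2 ratio was 0.197 for hairpin 1 against the control, 0.209 for hairpin 2 against the control and 0.209 between the hairpins. The hairpin arrays were thus no more alike by this measure than either was to the control array. Each SD compares 1 array with 1 array and includes measurement noise, so likeness of the cultures is not read from it.

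The spread depended on signal. When genes were divided into 5 equal groups of 1961 by mean log2 intensity, the SD of the log2 ratio fell by group from 0.283 in the dimmest to 0.234, 0.187, 0.176 and 0.139 in the brightest. The dimmest quintile held 31 of the 67 higher and 58 of the 83 lower genes at 1.5-fold, and the 2 dimmest quintiles together held 54 and 76. The brightest quintile held no higher gene and 1 lower gene, SH3KBP1.

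**Figure D1:**
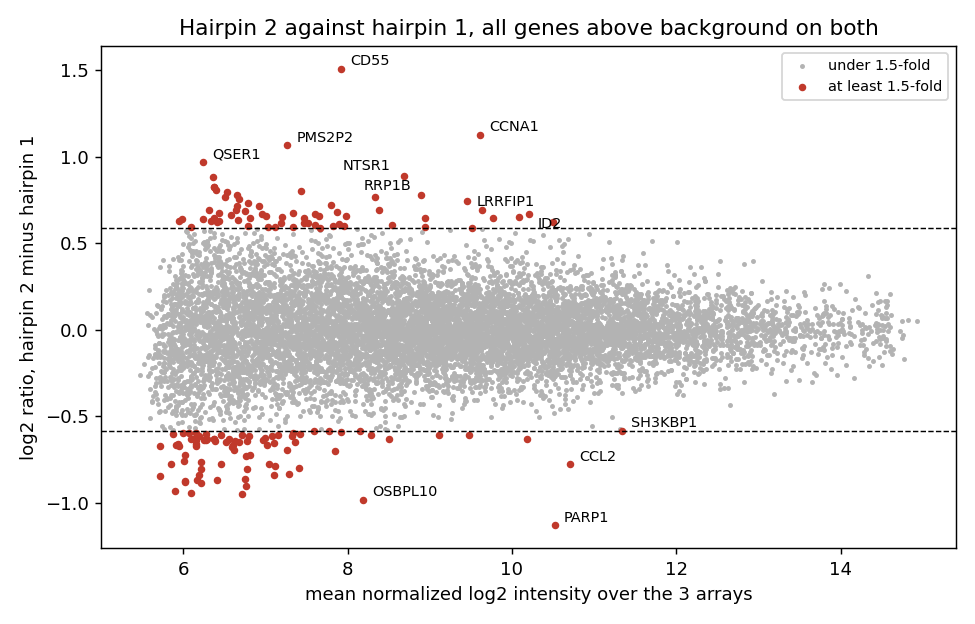
Log2 ratio of hairpin 2 to hairpin 1 (y axis) against the mean normalized log2 intensity over 3 arrays (x axis), 1 point per gene for 9805 genes, with 1.5-fold marked by dashed lines and genes past it in red. The cloud narrows from an SD of 0.283 in the dimmest quintile to 0.139 in the brightest, and CD55 (1.51), CCNA1 (1.12) and PARP1 (−1.13) lie outside it.

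The proximal promoters of PARP1 and of the genes at least 2-fold higher with hairpin 2 are shown for context, because these transcripts separate the arrays most. They come from RefSeq on GRCh38.p14 and run from 250 bases before to 50 bases after the gene's start. 3 of the 4 genes matched the table, and PMS2P2 did not. Capitals mark matches to the GC box GGGCGG on either strand, the only one of 6 motifs searched on both strands with a match in any of them. The others were the TATA box TATAAA, the CCAAT box written as such, the E-box CACGTG, the AP-1 site TGANTCA and the cyclic AMP response element TGACGTCA, and none of the motifs contains another.
PARP1, chr1:226408044-226408343, minus strand: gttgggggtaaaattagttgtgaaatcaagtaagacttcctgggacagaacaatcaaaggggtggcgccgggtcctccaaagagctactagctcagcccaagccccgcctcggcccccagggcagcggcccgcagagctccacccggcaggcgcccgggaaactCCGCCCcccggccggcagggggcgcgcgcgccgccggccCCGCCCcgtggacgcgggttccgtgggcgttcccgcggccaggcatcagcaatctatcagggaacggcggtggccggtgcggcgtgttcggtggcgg
CD55, chr1:207321428-207321727, plus strand: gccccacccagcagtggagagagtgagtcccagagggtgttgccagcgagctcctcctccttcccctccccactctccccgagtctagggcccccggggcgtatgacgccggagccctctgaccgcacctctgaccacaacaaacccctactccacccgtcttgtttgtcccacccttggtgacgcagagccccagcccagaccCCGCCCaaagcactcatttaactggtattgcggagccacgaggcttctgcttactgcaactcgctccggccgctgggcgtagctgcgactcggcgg
CCNA1, chr13:36431705-36432004, plus strand: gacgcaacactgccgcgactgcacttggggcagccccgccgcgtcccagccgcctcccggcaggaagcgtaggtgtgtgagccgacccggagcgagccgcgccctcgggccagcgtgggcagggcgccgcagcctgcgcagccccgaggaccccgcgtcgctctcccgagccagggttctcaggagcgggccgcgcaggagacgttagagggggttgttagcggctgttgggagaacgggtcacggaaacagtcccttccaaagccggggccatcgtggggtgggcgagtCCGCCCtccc
PARP1 held 2 matches and CD55 and CCNA1 held 1 each, and 44.6% of the 27305 promoters of this length hold at least 1. The shares of promoters were 12% for the TATA box, 35.7% for the CCAAT box, 7.43% for the E-box, 7.76% for the AP-1 site and 1.98% for the cyclic AMP response element. The sequences were 70% G or C with 33 CpG pairs for PARP1, 65% with 19 for CD55 and 72.7% with 35 for CCNA1. A match is a description of these letters and not a site of action.

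CD55, the complement decay-accelerating factor of the cell surface, was the gene furthest up with hairpin 2. Probe ILMN_1800540 had normalized log2 intensities of 7.27 in control cells, 7.49 in those with hairpin 1 and 9.0 with hairpin 2, from raw intensities of 272.5, 296.9 and 701.1. The hairpin 1 array was thus close to the control and the hairpin 2 array stood apart, at a log2 ratio of 1.51 or 2.84-fold, where the SD in its quintile of intensity was 0.234. Of the other complement regulators measured, CD59, the inhibitor of the membrane attack complex, had a log2 ratio of −0.16 between the hairpins (7.47, 7.82 and 7.67 in the control, hairpin 1 and hairpin 2), and the protease CFI was at 6.01 with both hairpins.

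CCNA1, the cyclin best known from male germ cells, showed another arrangement. Probe ILMN_2157099 was at 9.83 in control cells, 8.93 in those with hairpin 1 and 10.06 with hairpin 2. The control and hairpin 2 were within 0.22 of each other and hairpin 1 stood 0.90 below the control, so the log2 ratio of 1.12 between the hairpins (2.18-fold) came mostly from the hairpin 1 array. Of 21 measured cyclins no other was 1.25-fold apart, and the next were CCNJL (−0.23), CCNC (0.22) and CCNT2 (0.22). PMS2P2, a transcribed pseudogene of the mismatch repair gene PMS2, was at 7.20 in control cells, 6.77 in those with hairpin 1 and 7.83 with hairpin 2, a log2 ratio of 1.06 with the control between the hairpins. PMS2 itself had a log2 ratio of 0.16 and PMS2CL, another copy, −0.17. A probe of a near-identical copy may take up RNA of its relatives, which was not tested here. PMS1, a mismatch repair gene with a sequence of its own, had a log2 ratio of 0.67 (7.47, 7.34 and 8.01).

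The other genes highest with hairpin 2 were mostly dim and had the control between the hairpins. NTSR1, the neurotensin receptor, was the brightest after CCNA1 and RRP1B among the 15 highest, at 8.73 in control cells, 8.21 in those with hairpin 1 and 9.10 with hairpin 2, a log2 ratio of 0.89. RRP1B, a nucleolar factor of ribosomal RNA processing, was at 9.10, 8.41 and 9.19, with hairpin 1 alone apart. ACTG1P4, an actin pseudogene, was at 8.02, 8.11 and 8.88, with hairpin 2 alone apart, as was the zinc finger gene ZNF283 at 7.21, 7.14 and 7.94. NR1D2, the clock repressor REV-ERB beta, was at 6.80, 5.97 and 6.74, and hairpin 1 was again the array apart. The remaining 7 had log2 ratios of 0.78 to 0.97 at normalized log2 intensities of 5.79 to 7.04, and in all of them the control lay between the hairpins. They were QSER1, the nuclear pore component RANBP2, the neurofilament gene NEFL, the receptor phosphatase PTPRH, the nucleosome-binding HMGN3, the histone deacetylase HDAC9 and EMP1, a membrane protein of epithelia.

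The genes lowest with hairpin 2 after PARP1 were also mostly dim. OSBPL10, a lipid-binding protein of the oxysterol-binding family, was the brightest of them, at 8.03 in control cells, 8.76 in those with hairpin 1 and 7.78 with hairpin 2, a log2 ratio of −0.98 in which hairpin 1 lay further from the control. CHMP6, a subunit of the ESCRT-III membrane scission complex, was at 6.76, 6.68 and 5.81, with hairpin 2 alone apart. RFK, the riboflavin kinase, was at 6.44, 7.37 and 6.47, with hairpin 1 alone apart. FZD7, a Wnt receptor, was at 6.65, 7.23 and 6.37. For RFK and FZD7 a second probe above background on both arrays gave log2 ratios of 0.13 and 0.42, in the opposite direction. Those second probes were dim, at mean log2 intensities of 6.14 and 6.06. The other lowest genes had log2 ratios of −0.84 to −0.95 and included the RNA-binding protein RBM47, the sterol sulfotransferase SULT2B1, the cell cycle transcription factor MYBL2, the histone demethylase KDM4A, the mitochondrial acyl-CoA synthetase ACSF2, the transporter-family gene SLC35F1, FDXACB1 and the long non-coding RNA FAM215A. NINL, a centrosomal protein, and MIR373 were not above background in the control, so their place relative to it is only bounded.

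MIR373 was the only microRNA gene among the 15 lowest, at 6.45 with hairpin 1 and 5.60 with hairpin 2. The labelled target of the array is total RNA and a probe of this kind does not tell a host or precursor transcript from the mature molecule. MIR373 was dim, with raw intensities of 208.4 with hairpin 1 and 185.1 with hairpin 2, and its values are not read as levels of the mature sequences. Its mature sequences from RefSeq (GRCh38.p14) are printed because a microRNA acts through its seed, bases 2 to 8, shown in capitals.
hsa-miR-373-5p, chr19:53788710-53788731, plus strand: aCUCAAAAugggggcgcuuucc
hsa-miR-373-3p, chr19:53788748-53788770, plus strand: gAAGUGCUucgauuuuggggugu
The arms do not share a seed.

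**Figure D2:**
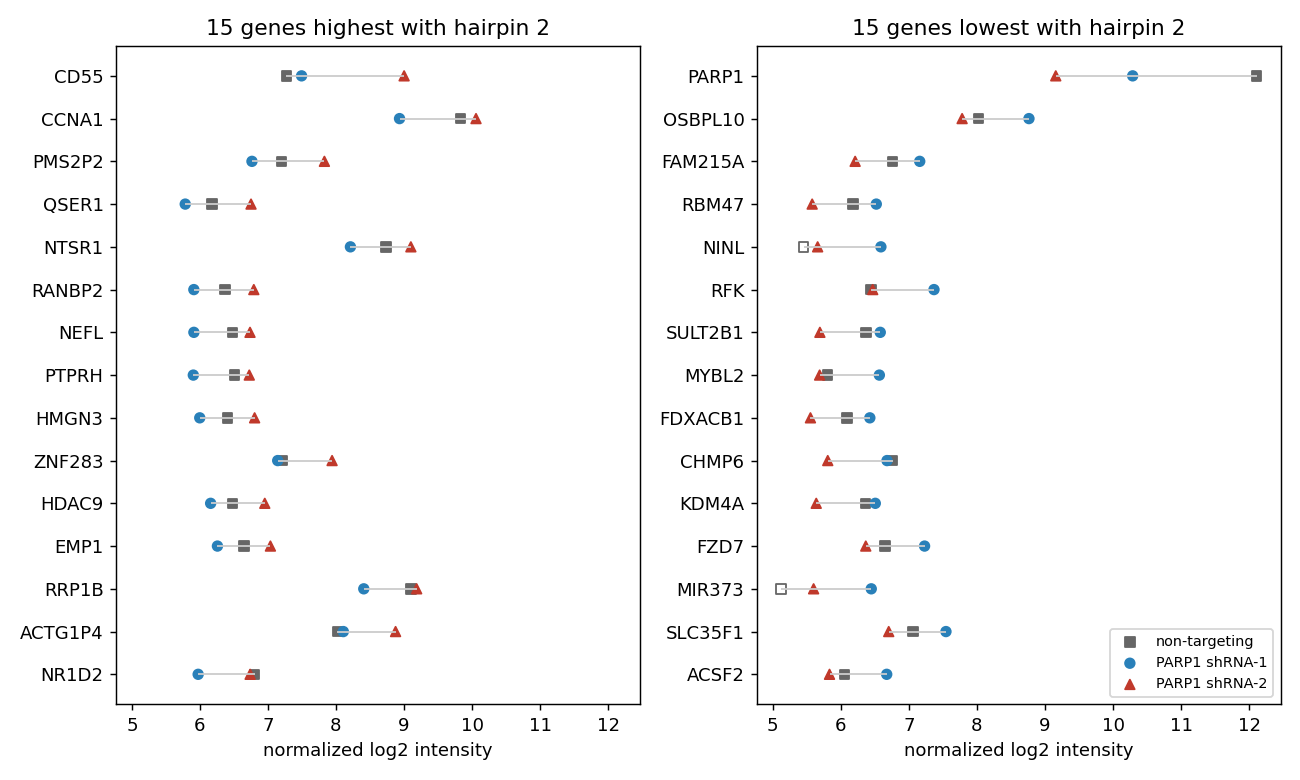
Normalized log2 intensity (x axis) on the non-targeting array (squares, open where not above background) and on the arrays of hairpin 1 (circles) and hairpin 2 (triangles) for the 15 genes highest (left) and 15 lowest (right) with hairpin 2, 1 array per point. PARP1 runs in steps from 12.11 to 10.29 to 9.16, whereas most other genes have the control between the hairpins.

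Among brighter genes, where the spread was narrower, 20 lay at least 1.5-fold apart in the upper 3 quintiles of intensity, 13 higher and 7 lower with hairpin 2. This cut was chosen after the values were seen. Beside NTSR1, CCNA1 and RRP1B the higher genes included LRRFIP1, a nucleic acid-binding protein, at 9.24 in control cells, 9.20 in those with hairpin 1 and 9.94 with hairpin 2 (log2 ratio 0.75). SFXN1, the mitochondrial serine transporter, was at 9.57, 9.32 and 10.01 (0.69). ID2, an inhibitor of basic helix-loop-helix factors, was at 10.30, 9.83 and 10.50 (0.67), and HK2, the hexokinase that starts glycolysis, at 9.98, 9.81 and 10.46 (0.65). LRRFIP1, SFXN1 and HK2 were thus further from the control with hairpin 2, and ID2 with hairpin 1. AP4E1 of the AP-4 adaptor was at 9.18, 8.49 and 9.14 (0.65) and SHLD2, a shieldin subunit that guards broken DNA ends from resection, at 8.91, 8.66 and 9.25 (0.59). Second probes gave 0.34 for ID2, 0.12 for HK2 and 0.09 for SHLD2, at mean log2 intensities of 9.53, 9.01 and 6.93.

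Of the brighter genes lower with hairpin 2, CCL2 had the largest ratio after PARP1. This monocyte-attracting chemokine (probe ILMN_1720048) was at 10.62 in control cells, 11.15 in those with hairpin 1 and 10.37 with hairpin 2, a log2 ratio of −0.78 or 1.71-fold, with hairpin 1 above and hairpin 2 below the control. DHRS1 was at 10.27, 10.45 and 9.82 (−0.63), and SEC63, which helps proteins across the endoplasmic reticulum membrane, at 8.67, 8.74 and 8.11 (−0.63). NUAK1, a kinase related to AMPK, was at 9.23, 9.37 and 8.76 (−0.61), TERF1 of the telomere-binding shelterin complex at 9.51, 9.77 and 9.17 (−0.61), and SH3KBP1, an adaptor in receptor uptake, at 11.29, 11.65 and 11.07 (−0.59). A second probe gave −0.05 for SEC63 and 0.17, in the opposite direction, for TERF1, against −0.40 for NUAK1 and −0.43 for SH3KBP1. The second probes of SEC63 and TERF1 were dimmer (6.38 and 6.90) than those of NUAK1 and SH3KBP1 (8.40 and 11.34). SEC63, NUAK1 and DHRS1 were further from the control with hairpin 2, and SH3KBP1 with hairpin 1. CDH2, N-cadherin, a dimmer gene, was at 7.02, 7.84 and 7.01 (−0.83), where the control and hairpin 2 were equal to within 0.01.

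A second probe is the only further measurement of a transcript on these arrays, and it seldom repeated a difference of 1.5-fold. By definition it is the dimmer probe, and for some genes it was far dimmer. SEC63 had mean log2 intensities of 8.51 and 6.38 by its probes, and TERF1 9.48 and 6.90. For others it was bright, as for SH3KBP1 (11.34) and ID2 (9.53). A failure to repeat is therefore not read as evidence against the brighter probe. Of the 150 genes past 1.5-fold by their brightest probe, 22 had a second probe above background on both hairpin arrays. The second probe was on the same side in 5 of 10 higher genes and 7 of 12 lower genes, and its median log2 ratio was 0.01 and −0.05, against medians of 0.66 and −0.65 over all higher and all lower genes by the brightest probe. It was past 1.5-fold on the same side for 1 gene, SOX2, whereas 0.974% and 1.4% of all 2568 second probes were past 1.5-fold higher and lower. Both SOX2 probes were dim, at mean log2 intensities of 6.02 and 5.91. CD55, CCNA1, PMS2P2, NTSR1, OSBPL10, CCL2 and PARP1 have no second probe above background, so none of them could be checked in this way. Over all 2568 genes with 2 probes, 56.3% of pairs were on the same side, and the SD of the difference between the probes' log2 ratios was 0.277. Probes of one gene can read different transcript isoforms.

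Genes whose brightest 2 probes were both at least 1.25-fold apart on the same side numbered 21 higher (0.818% of pairs) and 25 lower (0.974%). RIF1, which protects broken DNA ends and times replication, was higher with both probes, at log2 ratios of 0.52 and 0.75, with 9.63 in control cells, 9.41 in those with hairpin 1 and 9.93 with hairpin 2 by the brighter one. Both probes were also higher for the mitotic inhibitor FBXO5 (0.44 and 0.43), the ubiquitin ligase gene HERC4 (0.45 and 0.55), the kinase gene RIOK3 (0.49 and 0.45), CD47, the surface signal that restrains phagocytes (0.43 and 0.46), ATAD1 (0.52 and 0.39), PHLDB2 (0.44 and 0.55) and BCAS2 (0.40 and 0.47). In each of these 8 genes the control lay between the hairpins. The second probes of PHLDB2, CD47 and BCAS2 were dim, at mean log2 intensities of 6.14, 6.19 and 6.32.

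Lower with both probes were SOX2, a stem cell transcription factor (−0.72 and −0.64), PSMB9, an interferon-inducible immunoproteasome subunit (−0.51 and −0.52), NTMT1, an amino-terminal methyltransferase (−0.51 and −0.68), PAIP1, which binds the poly(A)-binding protein (−0.50 and −0.52), LYPD1 (−0.50 and −0.80), PMEPA1, a feedback inhibitor of TGF-beta signals (−0.46 and −0.66), SH3KBP1 (−0.59 and −0.43) and the septin gene SEPTIN6 (−0.41 and −0.65). SOX2 was at 5.82 in control cells, 6.48 in those with hairpin 1 and 5.76 with hairpin 2, so hairpin 1 was the array apart. NTMT1 was at 10.07, 9.83 and 9.32, lower with hairpin 1 than in the control and lower again with hairpin 2. The second probes of SOX2, PSMB9, NTMT1, PAIP1, LYPD1 and SEPTIN6 were dim, at mean log2 intensities of 5.90 to 6.52. Those of PMEPA1 (9.17) and SH3KBP1 (11.34) were brighter.

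**Figure D3:**
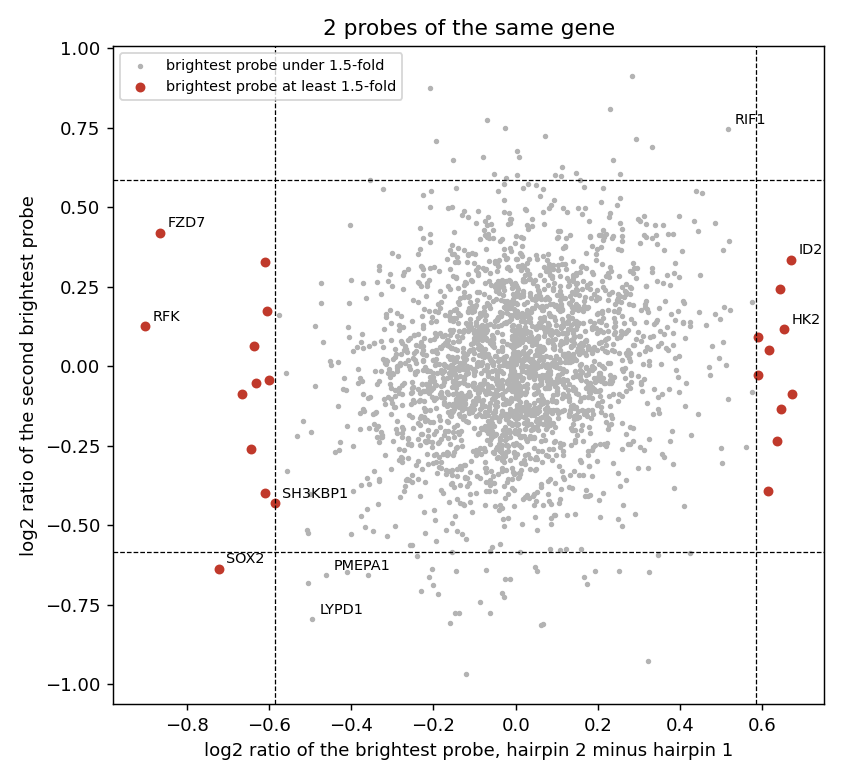
Log2 ratio of hairpin 2 to hairpin 1 by the brightest probe (x axis) and the second brightest probe (y axis) of 2568 genes, with 1.5-fold marked by dashed lines and the 22 genes past it by the brightest probe in red. SOX2 (−0.72 and −0.64) is the red point past both lines, and RFK and FZD7 lie on opposite sides by their probes.

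The control showed which hairpin stood away. Of the 150 genes past 1.5-fold, 147 were above background on all 3 arrays, and 120 of these had the control between the hairpins. Among the 67 higher genes 54 had the control between, 6 had hairpin 1 between (the order control, hairpin 1, hairpin 2), and 7 had hairpin 2 between. Among the 80 lower genes the numbers were 66, 11 and 3. Of all 9697 genes, 34.9% had the control between, 34.7% had hairpin 1 between and 30.3% had hairpin 2 between. Genes chosen for a wide gap between the hairpins leave room for the control inside it, so nothing is read from the larger share. Hairpin 1 lay further from the control in 38 of the 67 higher genes and hairpin 2 in 29. Among the 80 lower genes hairpin 1 lay further in 26 and hairpin 2 in 54. Most of these genes were not 1.5-fold from the control with either hairpin (43 of 67 higher and 51 of 80 lower). Shares over all 9697 genes are not given here for these distances, so nothing is read from the splits. Of these 147 genes, both hairpins were 1.5-fold from the control in 1, PARP1. CTBP2 (−1.15 and −1.55) and CLDN7 (−1.14 and −0.81), for example, were also that far from the control with both. They were under 1.5-fold apart between the hairpins, so they are not among the 147.

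**Figure D4:**
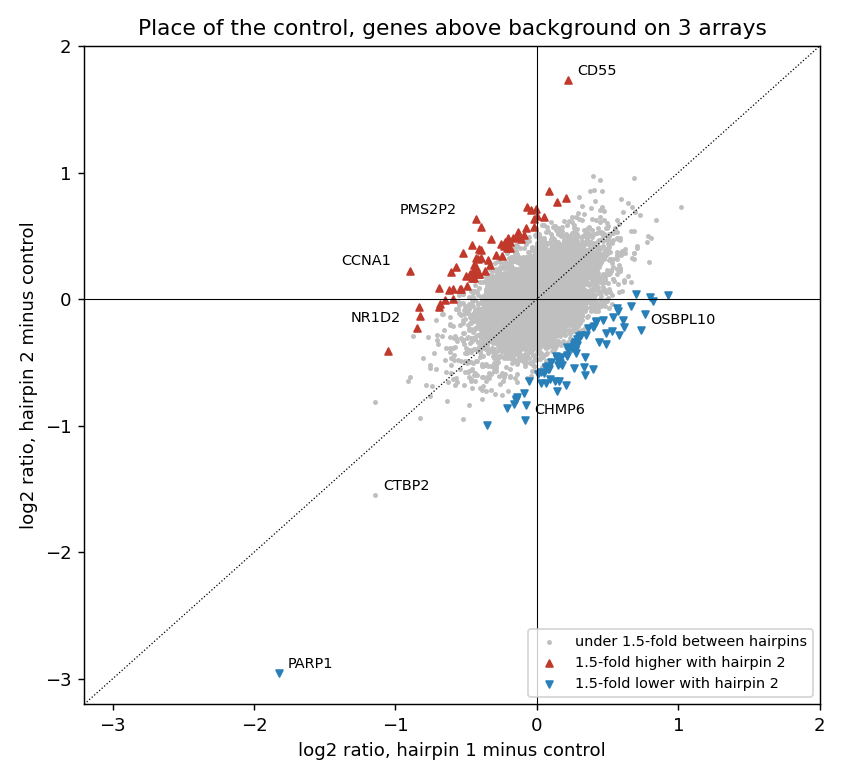
Log2 ratio to the control of hairpin 2 (y axis) against that of hairpin 1 (x axis) for the 9697 genes above background on 3 arrays, with genes 1.5-fold apart between the hairpins as triangles and equality as a dotted line. Both axes share the control array, so the tilt of the cloud is no result, and PARP1 (−1.82 and −2.95) is the triangle far down on both axes, with CD55 (0.22 and 1.73) far up on 1.

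Few genes followed the steps of PARP1. Among the 9697 genes, 9 were lower in both steps, from the control to hairpin 1 and from hairpin 1 to hairpin 2, by at least 1.25-fold a step (0.0928%), and 8 were higher in both steps (0.0825%). PARP1 was the only gene with both steps at 1.5-fold. The 8 named genes nearest to it in this order were PARP1 itself, KIF26A (7.03 in control cells, 6.51 in those with hairpin 1 and 6.08 with hairpin 2), CTBP2, a transcriptional corepressor (8.89, 7.74 and 7.34), ZNF577 (8.32, 7.93 and 7.53), TCIRG1, a subunit of the vacuolar proton pump (7.77, 7.41 and 7.04), MKS1 of the ciliary transition zone (7.12, 6.64 and 6.29), AMOTL2, an angiomotin that binds YAP (6.70, 6.35 and 5.71), and GARNL3 (6.38, 5.99 and 5.66). A second CTBP2 probe, dimmer at a mean log2 intensity of 6.37 against 7.99, had a log2 ratio of 0.27 between the hairpins, against −0.40 by the first. KIF26A, MKS1, AMOTL2 and GARNL3 were in the dimmest quintile. Raw intensities of GARNL3 were 205.8 in control cells, 185.9 with hairpin 1 and 187.5 with hairpin 2. Its step between the hairpins was thus absent before background correction and normalization. Steps in the other direction were seen for a dim RPL37 probe (5.80, 6.25 and 6.74), TSN (5.90, 6.31 and 6.76), TBC1D25 (5.80, 6.20 and 6.77), PRKAR2A, a regulatory subunit of protein kinase A (7.38, 7.84 and 8.23), OR56B1, C1QL4, TUBE1 and NACC1. All of these but PRKAR2A and TUBE1 were also in the dimmest quintile. For NACC1 a second probe gave 0.40 between the hairpins against 0.33 by the first, and for TUBE1 0.10 against 0.34. The measure of likeness is the order of 3 arrays alone.

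Gene groups were described by their members' counts and median beside those of all genes, where 0.683% were 1.5-fold higher, 0.847% 1.5-fold lower, 5.51% 1.25-fold higher and 6.01% 1.25-fold lower, and 47.9% had a ratio above 0. Counts and medians of groups use the brightest probe of each gene, and a second probe that was 1.25-fold apart is named where the brightest was not. The groups were chosen with earlier results of these data known. Among 19 measured PARP enzymes and proteins that handle ADP-ribose, PARP1 alone was 1.5-fold apart between the hairpins, and PARP8 (10.78 in control cells, 10.77 in those with hairpin 1 and 10.42 with hairpin 2, log2 ratio −0.35) the only other one at 1.25-fold. OARD1, which removes ADP-ribose, was at −0.27 and TIPARP at 0.24. Among 17 partners of PARP1 in single-strand break and base excision repair the median was 0.00, and the scaffold protein XRCC1, which is drawn to ADP-ribose chains, was the only one at 1.25-fold (8.95, 9.23 and 8.88, log2 ratio −0.35). A second probe was at −0.58 for the replication clamp PCNA (0.12 by its brightest) and at 0.33 for APTX (0.19). Of 17 homologous recombination and Fanconi genes none reached 1.25-fold by its brightest probe, with FANCC (0.32) and FANCG (0.26) the furthest. Second probes of MRE11, the end-resecting nuclease, and BRCA1 were lower (−0.58 and −0.32), where their brightest gave 0.01 and 0.05. Of 13 NAD salvage enzymes and sirtuins, NMNAT3, which makes NAD+ in mitochondria, was at −0.58 and SIRT2 at −0.40 by one probe and −0.53 by another, and these 2 were the members at 1.25-fold.

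Interferon-stimulated and NF-kB target genes were described together as inflammatory groups. Of 24 interferon-stimulated genes 5 were 1.25-fold lower and 0 higher with hairpin 2, with a median of −0.08. PSMB9 was at 8.75 in control cells, 8.88 in those with hairpin 1 and 8.37 with hairpin 2, the ubiquitin-like ISG15 at 8.59, 8.55 and 8.08 (−0.46), IFI35 at 8.24, 8.37 and 7.95 (−0.43) and the transcription factor IRF7 at 7.48, 7.72 and 7.39 (−0.33, and −0.36 by a second probe). IFI44L had −0.38 by one probe and 0.06 by another. In ISG15, PSMB9 and IFI35 hairpin 2 lay further from the control, and in IRF7 hairpin 1 did. Of 17 NF-kB targets 3 were 1.25-fold lower, CCL2, the mitochondrial superoxide dismutase SOD2 (11.06, 11.23 and 10.86, log2 ratio −0.37, and −0.50 by a second probe) and the deubiquitinase TNFAIP3 (−0.35). TNFAIP3 was dim, and its raw intensities were close to equal before processing (191.4 with hairpin 1 and 191.9 with hairpin 2). BIRC2, an inhibitor of apoptosis, was 1.25-fold higher by its brightest probe (0.33, and 0.30 by a second). The neutrophil-attracting chemokines ran the same way as BIRC2 between the hairpins, with CXCL8 at 0.21 by its brightest probe and 0.56 by a second, CXCL2 at 0.31 and CXCL1 at 0.16. By their brightest probes, however, these chemokines were below the control with both hairpins (CXCL2 at 7.97, 7.36 and 7.67). BIRC2 was above the control with hairpin 2 (10.67, 10.50 and 10.83). NFKB2, a subunit of the factor itself, was at −0.05 and −0.44 by its 2 probes.

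Among surface and lineage groups, 3 of 13 mesenchymal genes were 1.25-fold lower and 0 higher. These were CDH2, the matrix protein TNC (8.16, 8.19 and 7.72, log2 ratio −0.47, with 0.08 by a second probe) and the actin-binding TAGLN (10.07, 10.18 and 9.83, −0.35, with −0.52 by a second). Of 9 epithelial genes, CLDN7 was the 1 member at 1.25-fold (0.33). It was at 7.37 in control cells, 6.22 in those with hairpin 1 and 6.55 with hairpin 2, so both hairpin arrays lay below the control. The adhesion molecule EPCAM was at 0.00 by its brightest probe and 0.39 by a second. The 6 measured S100 genes lay between −0.06 and 0.20, with S100A4 at −0.05 (10.34 in control cells, 9.89 in those with hairpin 1 and 9.84 with hairpin 2), so that both hairpin arrays lay below the control and within 0.05 of each other. Of 9 genes tied to brain metastasis, the gelatinase MMP9 (−0.39) and IL13RA2 (−0.38, not above background in the control) were 1.25-fold lower, and PCDH7 was at −0.16 by one probe and 0.38 by another. Of 15 TGF-beta and BMP targets ID2 (0.67, and 0.34 by a second probe) and the decoy receptor BAMBI (0.40) were higher and PMEPA1 (−0.46) and SKI (−0.34) lower.

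Growth and stress groups held few members at 1.25-fold. None of 36 G2/M genes was 1.25-fold lower and BUB1B (9.55, 9.59 and 9.99, log2 ratio 0.40) was the 1 higher member, with a median of −0.01. Of 38 G1/S and replication genes, E2F1, the transcription factor of S-phase entry, was 1.25-fold lower (7.38, 7.31 and 6.76, −0.56) and the ribonucleotide reductase subunit RRM2 higher (11.55, 11.04 and 11.46, 0.43), with a median of −0.08 and 26.3% of members above 0. MAPK feedback genes had the highest median of the 29 groups, 0.17, with 84.6% of the 13 members above 0 and none at 1.25-fold. Their furthest members were HBEGF (0.31), EPHA2 (0.26), SPRED1 (0.24) and DUSP5 (0.23). Immediate early genes (22 members) had a median of 0.07, with FOS at 0.37 and FOSB at −0.35. FOSB was dim, with raw intensities of 190.4 with hairpin 1 and 190.9 with hairpin 2. Replication-dependent histone genes and ATF4 and unfolded protein response genes had the lowest medians, both −0.10. H2BC17 (−0.77) and H4C14 (−0.65) were 1.5-fold lower among 16 histone genes, whose near-identical copies a probe may not tell apart, and H4C5 (0.55) was the furthest higher. Of 24 ATF4 and unfolded protein response genes only XBP1 reached 1.25-fold by its brightest probe (−0.32), and its second probe gave 0.02, while PSPH had −0.16 by its brightest and −0.37 by its second.

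Metabolic and housekeeping groups showed few members apart. Of 28 hypoxia and glycolysis genes HK2 and NDRG1 (9.81, 9.29 and 9.65, log2 ratio 0.36) were 1.25-fold higher and the glucose transporter SLC2A3 lower (12.63, 12.89 and 12.46, −0.43), and a second probe gave 0.12 for HK2 and −0.35 for TPI1 (−0.14 by its brightest). Of 20 cholesterol synthesis genes PMVK (10.86, 10.83 and 10.37, −0.46) and MSMO1 (−0.38, with −0.05 by a second probe) were lower, and SREBF1, which drives lipid synthesis genes, was at 0.05 and −0.63 by its 2 probes. None of 18 NRF2 targets reached 1.25-fold by its brightest probe, at a median of 0.08, with NQO1, a quinone reductase, at 0.31 (14.36, 14.17 and 14.49) and 0.47 by a second probe, and PIR at 0.02 and −0.42. Among 18 p53 targets the death receptor FAS was higher (6.61, 5.94 and 6.33, 0.38) and BBC3 lower (−0.33). By the brightest probe no member reached 1.25-fold among 18 heat shock genes or 12 genes of the RNA interference machinery, where AGO1 (−0.30) and TNRC6B (−0.23) were furthest. Second probes of the mitochondrial chaperonin genes HSPE1 and HSPD1 gave 0.42 and 0.34, against 0.22 and 0.03 by their brightest. Of 64 cytosolic ribosomal protein genes RPL37 was higher (0.49) and RPL13 lower (−0.32), of 59 oxidative phosphorylation subunits UQCR11 was lower (−0.45), and of 27 small nucleolar and Cajal body RNAs SNORD3D was lower (−0.34). Second probes were lower for RPL36 (−0.47), ATP5MC1 (−0.44) and ATP5F1D (−0.34), against 0.10, −0.13 and 0.01 by their brightest.

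**Figure D5:**
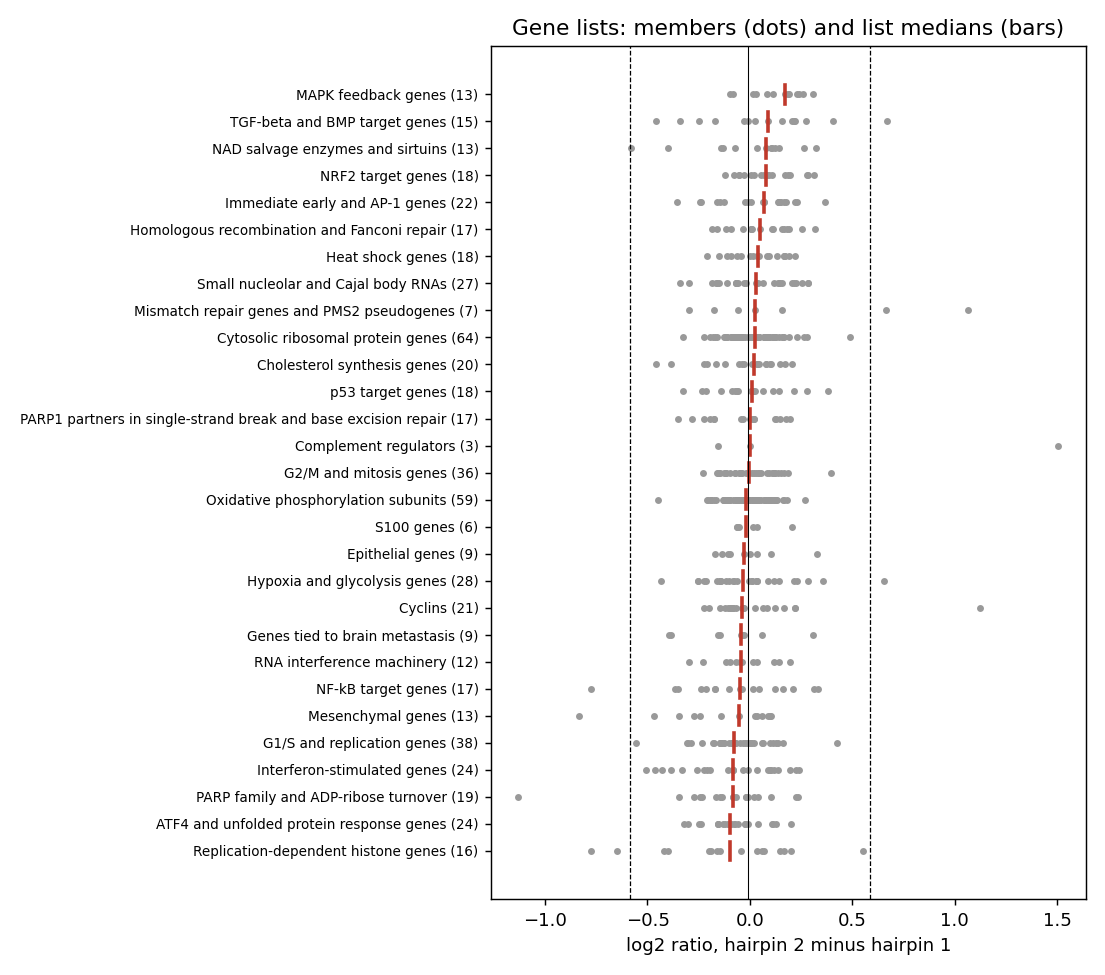
Log2 ratio of hairpin 2 to hairpin 1 (x axis) for each measured member (dots) of 29 gene groups (rows, with the number measured), with group medians as red bars, the median of all genes as a solid line and 1.5-fold as dashed lines. Group medians run from −0.10 for histone genes to 0.17 for MAPK feedback genes, and single members such as CD55, CCNA1 and PARP1 lie far from their groups.

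Position and gene length were compared as well. By chromosome, over those with at least 20 measured genes, the median log2 ratio ran from −0.05 on chromosome 19 (664 genes) and −0.04 on chromosome 16 (464 genes) to 0.03 on chromosome 8 (358 genes) and 0.04 on chromosome 18 (134 genes). Among 5 equal groups of 1881 protein-coding genes by the length of the gene in RefSeq, the median log2 ratio was −0.05 in the shortest, under 9.56 kb, then −0.02, 0.00 and 0.01, and 0.02 in the longest. In the shortest group 50 genes were 1.25-fold higher and 131 lower, and in the longest 160 were higher and 134 lower. The groups between held 72, 106 and 122 higher and 118, 77 and 93 lower genes. Over all 9805 genes 5.51% were higher and 6.01% lower. The shortest and longest groups thus differed in their number of higher genes and hardly in that of lower genes. Against the control the medians of the shortest group were 0.00 with hairpin 1 and −0.06 with hairpin 2, and those of the longest 0.02 and 0.04. Of probes without 1 gene symbol, which entered no count of genes, ILMN_3268697 was the furthest lower (9.32 in control cells, 10.52 in those with hairpin 1 and 9.15 with hairpin 2, log2 ratio −1.37) and ILMN_1855230 the furthest higher (5.68, 6.21 and 7.42, 1.21).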

How the data were processed

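Biotin-labelled RNA of 3 cultures was read on Illumina HumanHT-12 V4 arrays, 1 array a group. The authors used GenomeStudio, per the submitters' processing notes, and its version was not given in the sources used here. The non-normalized table deposited by the authors gives, for each probe, an average intensity over beads on a linear scale, whose quartiles differ between arrays. The authors' detection p-value stands beside each intensity, per the file headers, and moves in steps of 1 in 770. The second deposited table holds intensity values with equal quartiles on all arrays and the same ranks, from which quantile normalization was inferred.

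The function neqc (limma 3.58.1, R 4.3.3) corrected the background through the detection p-values, added an offset of 16, quantile normalized all 3 arrays together and took log2. The procedure was tested on simulated data in which only probes of middle to high raw intensity were changed. That test therefore does not cover the dim genes that make up most calls at 1.5-fold. Ratios were computed in pandas 2.3.3. Probe names came from the platform annotation: 30106 of 47309 probes had 1 gene symbol, 30067 of them with a gene ID in the RefSeq table of GRCh38.p14, 0 symbols needed an update, and 8 probes with several genes were not named. The files name no genome build, so coordinates are given only for the printed RefSeq sequences.

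A gene counted as apart at 1.5-fold or 2-fold. The count at 1.25-fold was chosen after seeing the data. Named genes were PARP1, CD55, CCNA1, PMS2P2, the 15 highest and 15 lowest, the 8 each way in the order control, hairpin 1, hairpin 2 by the smaller step, the 8 each way by the smaller ratio of 2 probes, and up to 4 members of each of 29 lists, without provisional names. Genes named at the edge of the 1.5-fold rule and in the upper 3 quintiles of intensity, group members named for a second probe, and CXCL1, CXCL2 and CXCL8 were chosen after their values were seen. Members and lists were chosen with earlier results of these data known. The processing was varied by leaving out background correction, raising the offset to 50, replacing quantile normalization with median scaling or cyclic loess, normalizing the hairpin arrays alone, starting from the deposited normalized intensities, using 3 other filters on dim probes and averaging all probes of a gene.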

Additional observations from a re-analysis of the deposited data

Results flagged for a closer look

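The hairpins lay on opposite sides of the control, each by at least 1.25-fold, in 11 of the named genes above background on all 3 arrays. The difference was not tested, since each hairpin has 1 array. Lower with hairpin 1 and higher with hairpin 2 than the control were PMS2P2 (log2 ratios to the control of −0.43 and 0.63), QSER1 (−0.39 and 0.57), NTSR1 (−0.52 and 0.37), RANBP2 (−0.46 and 0.43), HMGN3 (−0.41 and 0.40), HDAC9 (−0.32 and 0.47) and EMP1 (−0.39 and 0.38). Higher with hairpin 1 and lower with hairpin 2 were FAM215A (0.40 and −0.55), RBM47 (0.34 and −0.60), FDXACB1 (0.34 and −0.54) and SLC35F1 (0.49 and −0.35). All 11 had been picked as the furthest apart between the hairpins, which favours opposite sides. The share over all genes is not given here, so the count of 11 is not read as a result.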

How the results depend on the processing

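The direction of all 150 genes past 1.5-fold was kept in every alternative in which they were measured (147 genes when all 3 arrays had to be above background), but their number was not. The 3 other filters reuse the same normalized values and the other settings reprocess the same arrays, so a kept direction is no independent check. Without background correction 9 genes were 1.5-fold higher and 3 lower, and 1 and 0 at 2-fold. On the deposited normalized values the numbers were 5 and 3, and again 1 and 0 at 2-fold. These settings keep the background in the signal and so shrink ratios of dim genes. The 8 genes past 1.5-fold on the deposited values were CD55 (1.00), CCNA1 (0.91), NTSR1 (0.65), LRRFIP1 (0.60), ID2 (0.60), CCL2 (−0.73), OSBPL10 (−0.66) and PARP1 (−0.94), and without background correction PMS2P2, RRP1B, SFXN1 and HK2 joined them. An offset of 50 left 19 higher and 19 lower at 1.5-fold. Looser filters added dim genes: with a detection p under 0.05 on both hairpin arrays 120 were higher and 120 lower at 1.5-fold, and 7 higher and 4 lower at 2-fold. With a p under 0.01 on at least 1 hairpin array the numbers were 202 and 169 at 1.5-fold and 22 and 25 at 2-fold. That filter admits genes above background on 1 hairpin array alone, which favours wide ratios, so the larger numbers are not read as a result. Median scaling gave 65 and 92, cyclic loess 68 and 83, the hairpin arrays alone 66 and 84, and the mean of a gene's probes 59 and 74. The log2 ratio of PARP1 ranged from −1.13 to −0.94. Of the named genes, 47 moved by more than the SD across genes without background correction, 49 on the deposited values, 20 at an offset of 50 and 9 with the mean of probes (RFK, FZD7, HK2 and CTBP2 among them). No paired analysis was possible because each group has 1 array. Signal over background limits genes in the dimmest quintiles, and without replicate arrays no ratio has an error.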
